A study of Mus musculus with 8 samples.

Results

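Macrophages that met lipopolysaccharide (LPS) with calcium chelated outside the cell were set against macrophages that met it without the receptor CD14. Each condition was measured once, so the comparison uses 2 of the 8 arrays of the series, chosen by their labels and both taken after 6 h of LPS. LPS is the outer membrane component of Gram-negative bacteria. The EGTA array held RNA of wild-type C57BL/6 macrophages given smooth LPS at 1 µg/ml together with EGTA, a chelator that binds calcium in the medium. The CD14-deficient array held RNA of Cd14-/- C57BL/6 macrophages given LPS at 1 µg/ml without EGTA. The array of wild-type C57BL/6 macrophages given smooth LPS alone for 6 h is printed beside both, as "wild type". Values "without CD14" are those of the CD14-deficient array. A pair of arrays taken after 24 h of LPS, EGTA and CD14-deficient, and the unstimulated arrays of CD14-deficient and wild-type cells are used where stated.

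All cells were cultured for 7 days from the bone marrow of mice aged 6 to 8 weeks, in medium that held M-CSF, which turns marrow cells into macrophages, and 10% serum. The number of mice behind an array is not given in the labels. The EGTA concentration is printed in the 24 h label, 2 mM, and not in the 6 h label, and the type of LPS is named for the wild-type cells alone. EGTA and genotype both differ between the compared arrays, so their parts cannot be told apart from this pair alone. No array holds EGTA without LPS or CD14-deficient cells with EGTA. Differences are given as EGTA minus CD14-deficient, and none of them has a replicate check. In bulk RNA, fewer cells expressing a gene and less RNA per cell cannot be told apart.

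CD14 binds LPS and hands it to the receptor TLR4 with its partner MD-2. From the plasma membrane TLR4 signals through MyD88 to NF-kB and cytokine genes. CD14 also aids the uptake of TLR4 into endosomes, where TRIF and IRF3 switch on interferon beta, which in turn induces a large set of antiviral genes through STAT factors. CD14 has further been tied to calcium entry, which activates the phosphatase calcineurin and the transcription factor NFAT. The arrays do not measure calcium, and whether CD14 acts in this way in these macrophages was not tested. The series holds arrays with EGTA and arrays without CD14, which can be compared. This pair alone cannot separate calcium-dependent effects, a loss of TRIF signalling and other effects of the chelator, and none of these was tested.

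The promoters below were picked among genes named in the text whose window held a match to a searched motif. Cxcl1 and Cxcl2 stand for the chemokine genes that were lower with EGTA, and Cxcl10 for a chemokine gene that hardly differed. Slc7a11 and Gclm stand for the antioxidant genes that were lower with EGTA. Creld2 and Pdia6 stand for the endoplasmic reticulum genes that were higher with EGTA. Each is the run of 250 bases before the RefSeq start of the gene in build GRCm38.p6, read 5′ to 3′ on the strand of the gene. Capitals mark the match to the motif named in the next paragraph.
Cxcl1: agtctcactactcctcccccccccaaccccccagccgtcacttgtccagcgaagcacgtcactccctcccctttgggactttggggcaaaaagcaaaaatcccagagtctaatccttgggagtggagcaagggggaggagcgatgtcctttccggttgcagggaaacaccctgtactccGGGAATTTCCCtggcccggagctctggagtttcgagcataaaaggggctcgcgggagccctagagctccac
Cxcl2: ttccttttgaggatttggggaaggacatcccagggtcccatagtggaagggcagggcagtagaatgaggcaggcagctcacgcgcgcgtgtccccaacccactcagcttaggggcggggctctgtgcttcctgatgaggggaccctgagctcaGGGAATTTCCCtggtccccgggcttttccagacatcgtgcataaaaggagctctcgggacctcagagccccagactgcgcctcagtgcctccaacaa
Cxcl10: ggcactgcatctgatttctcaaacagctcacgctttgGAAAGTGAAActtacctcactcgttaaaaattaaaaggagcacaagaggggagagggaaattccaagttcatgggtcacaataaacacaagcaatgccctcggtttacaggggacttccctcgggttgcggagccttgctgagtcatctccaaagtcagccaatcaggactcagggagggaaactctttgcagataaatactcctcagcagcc
Slc7a11: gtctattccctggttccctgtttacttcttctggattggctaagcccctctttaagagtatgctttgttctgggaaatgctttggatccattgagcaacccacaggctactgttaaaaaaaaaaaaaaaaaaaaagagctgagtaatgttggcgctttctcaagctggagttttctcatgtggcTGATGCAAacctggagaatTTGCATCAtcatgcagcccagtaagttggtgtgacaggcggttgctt
Gclm: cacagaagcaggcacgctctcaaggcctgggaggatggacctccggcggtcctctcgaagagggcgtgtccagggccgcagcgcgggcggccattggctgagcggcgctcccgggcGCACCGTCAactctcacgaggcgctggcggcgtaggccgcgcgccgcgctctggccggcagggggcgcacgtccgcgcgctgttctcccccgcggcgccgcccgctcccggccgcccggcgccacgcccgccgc
Creld2: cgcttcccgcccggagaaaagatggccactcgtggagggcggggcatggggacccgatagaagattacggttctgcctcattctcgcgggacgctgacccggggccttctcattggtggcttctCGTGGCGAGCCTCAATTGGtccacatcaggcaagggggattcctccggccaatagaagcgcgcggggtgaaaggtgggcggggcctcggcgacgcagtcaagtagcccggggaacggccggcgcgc
Pdia6: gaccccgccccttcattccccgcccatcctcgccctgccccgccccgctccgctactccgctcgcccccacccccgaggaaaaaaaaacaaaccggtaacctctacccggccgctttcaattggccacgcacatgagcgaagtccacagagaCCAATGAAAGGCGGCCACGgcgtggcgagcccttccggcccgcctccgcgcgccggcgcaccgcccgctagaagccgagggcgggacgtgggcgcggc

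The windows lie at chr5:90890995-90891244, plus strand, for Cxcl1, and at chr5:90903649-90903898, plus strand for Cxcl2. Those of Cxcl10 and Slc7a11 lie at chr5:92348890-92349139, minus strand and at chr3:50443614-50443863, minus strand. Those of Gclm, Creld2 and Pdia6 lie at chr3:122245307-122245556, plus strand, at chr15:88819396-88819645, plus strand and at chr12:17266339-17266588, plus strand. All motifs were searched on both strands of 32851 RefSeq promoter windows of this length. The NF-kB motif (GGGA, any 2 bases, TTCC) was found in 1.21% of all windows, and in Cxcl1 and Cxcl2 2 matches overlap, 1 on each strand. Of the compared genes with a window 1.65% held that motif, as did 4.59% of those higher with EGTA and 3.66% of those lower. The interferon-stimulated response element (GAAA, any 2 bases, GAAA) was in 2.98% of windows and is marked in Cxcl10, which also holds 1 match to the NF-kB motif and 1 to the antioxidant response element. The amino acid response element TGATGNAA was in 3.45%, with 2 matches in Slc7a11 that face each other. The antioxidant response element TGACNNNGC was in 10.2%, with 1 match in Gclm. The endoplasmic reticulum stress element (CCAAT, any 9 bases, CCACG) was in 0.113%, with 1 match each in Creld2 and Pdia6. The windows of Lcn2, Il1a, Cxcl9, Il33, Ddit3, Ddit4, Trib3 and Srxn1 were searched too and held no match to any of these motifs. A match describes letters and does not show that a factor binds there.

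With the arrays quantile normalised, 6804 of 12394 genes had an intensity above 88.2, the median of all values, on the brighter of the 2 arrays and were compared. Of these, 261 (3.84%) were at least 2-fold higher with EGTA and 209 (3.07%) at least 2-fold lower, and 6334 lay within 2-fold. The central 95% of genes lay between log2 differences of -1.09 and 1.23, and the median was 0.00. At least 4-fold differences were seen for 35 genes higher and 30 lower with EGTA, and at least 8-fold for 9 higher and 3 lower. This split rests on the scaling of the arrays. With intensities as deposited, 86 of 6570 compared genes were higher and 880 lower, and the median of all genes stood at -0.51. Counts of list members as deposited, given below, are to be read beside these counts, since that shift enters them too. Differences below are from the normalised arrays, where that shift is taken out. A floor was set at an intensity of 38.4. Of the higher genes 30 had the CD14-deficient array at the floor, and of the lower genes 21 had the EGTA array there, so their folds are bounds. The filter on brightness lay between Pdcd4, the dimmest gene kept (88.2 with EGTA, 62.0 in CD14-deficient cells), and Klhl25, the brightest left out (57.7 with EGTA, 88.1 without CD14).

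**Figure D1:**
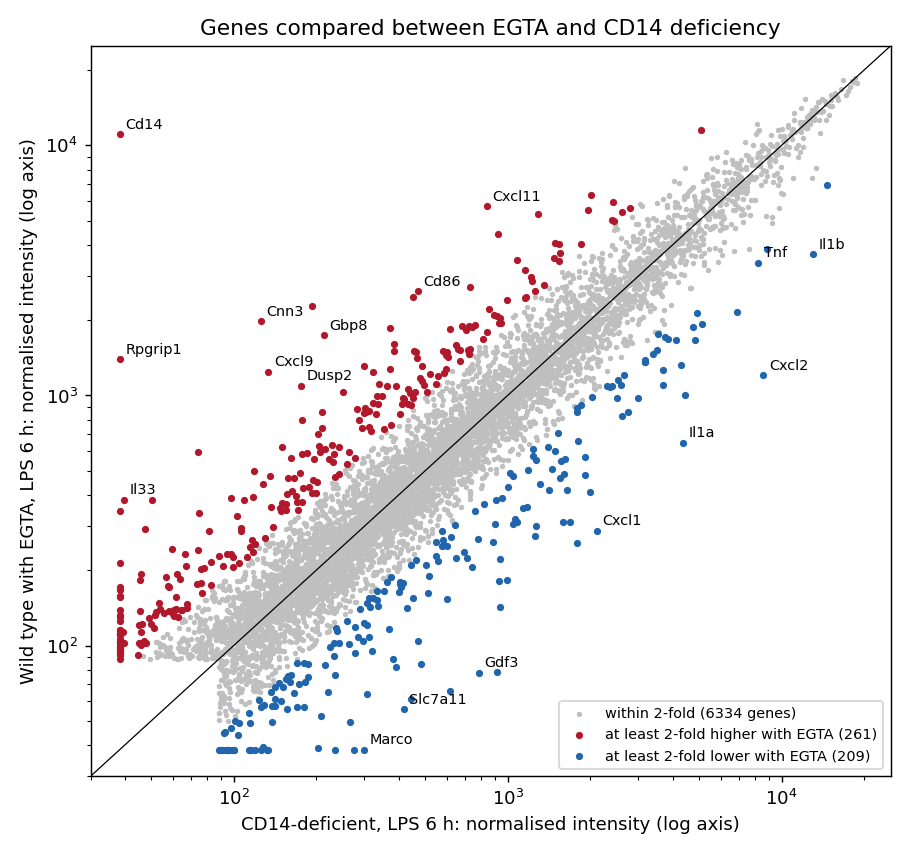
Normalised intensity of 6804 genes on log axes, with the EGTA array on the vertical axis and the CD14-deficient array on the horizontal axis, both after 6 h of LPS. Each point is 1 gene, the line marks equal intensity, 261 genes at least 2-fold higher with EGTA are red and 209 lower are blue, and rows of points at the edges sit at the floor of 38.4.

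The arrays were close in RNA quality. The RNA integrity number was 9.7 for both, and 0.3 µg of starting RNA gave 64.7 µg of labelled cRNA with EGTA and 67.2 µg from CD14-deficient cells. The ratio of the 3′ to the 5′ probe sets was 1.27 with EGTA and 1.12 without CD14 for Actb, and 0.709 with EGTA and 0.733 without CD14 for Gapdh. The trimmed mean of the deposited intensities was 314 with EGTA and 428 in CD14-deficient cells. Of 9 compared macrophage markers, 2 were higher with EGTA (Cd14 and Mertk) and none lower, and the other 7 ran from -0.49 for Adgre1 to 0.47 for Fcgr1 on the log2 scale. Lyz2, the macrophage lysozyme, stood at 12979 with EGTA and 13097 in CD14-deficient cells, and Csf1r, the M-CSF receptor, at 7245 with EGTA and 9865 without CD14. Most markers of other cell types were at the floor. All 6 B cell markers were at the floor on both arrays, as were 8 of 9 neutrophil markers, 6 of 7 erythroid and mast cell markers and 5 of 6 dendritic cell markers. Of 9 fibroblast markers, 9 were at the floor with EGTA and 8 in CD14-deficient cells, and of 8 T and NK cell markers 6 were at the floor on both arrays. Summed over its list, intensity was 945 with EGTA and 906 in CD14-deficient cells for neutrophil markers, 2597 with EGTA and 2899 without CD14 for T and NK markers, and 293 with EGTA and 456 without CD14 for dendritic cell markers. The brightest of them was Il7r, a cytokine receptor gene of lymphocytes, at 2272 with EGTA and 2591 without CD14, followed by Csf3r, the G-CSF receptor gene of neutrophils, at 638 with EGTA and 599 without CD14. Their part in the results was not tested.

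Cd14 itself gave the largest difference and checks the genotype. Its intensity was 11088 with EGTA, at the floor without CD14 and 12515 in wild-type cells with LPS alone. That is at least 289-fold higher with EGTA, with the wild-type array on the side of EGTA. The other parts of the LPS receptor were close. Tlr4 stood at 957 with EGTA and 720.4 in CD14-deficient cells, and its partner gene Ly96, which encodes MD-2, at 1285 with EGTA and 1064 without CD14. Of 12 genes of the receptor complex and its surface partners, 2 were higher with EGTA, Cd14 and the chemokine receptor gene Cxcr4, and none was lower, while as deposited 2 were higher and 2 lower. None of 9 genes for TLR adaptors and kinases differed at least 2-fold, and as deposited 1 was lower. Their log2 differences ran from -0.56 for Traf6, which encodes a ubiquitin ligase downstream of MyD88, to 0.31 for Tab1, a partner of the kinase TAK1.

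Cxcl1 and Cxcl2, which encode chemokines that attract neutrophils, were lower with EGTA by about the same factor. Cxcl1 had an intensity of 287 with EGTA, 2115 without CD14 and 348 in wild type with LPS alone. Cxcl2 had 1207 with EGTA, 8583 without CD14 and 1507 in wild type. These were 7.36-fold and 7.11-fold lower with EGTA, and in both genes the CD14-deficient array stood alone above the other two. Lcn2, an iron-sequestering protein of the acute phase, was 7.01-fold lower at 256 with EGTA, 1797 without CD14 and 388 in wild type. Of 5 compared genes of this list, 4 were lower, and the median log2 difference was -2.81, beside 0.00 over all genes. The other lower member was S100a8, a calcium-binding alarmin, at 118 with EGTA and 236 in CD14-deficient cells, right at the 2-fold limit. Pf4, a platelet-type chemokine gene, lay within 2-fold at -0.19.

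Inflammatory cytokine genes split. Of 15 compared, 6 were lower with EGTA and 2 higher, with a median of -0.44, and as deposited 7 were lower and 2 higher. Il1a, which encodes the alarm cytokine interleukin 1 alpha, stood at 647 with EGTA, 4386 without CD14 and 879 in wild type, a 6.78-fold difference. Il1b, its secreted relative, stood at 3672 with EGTA, 13064 without CD14 and 4472 in wild type, 3.56-fold lower with EGTA. Tnf, the classic early cytokine of LPS, was 2.42-fold lower, at 3398 with EGTA, 8213 without CD14 and 3802 in wild type. In these 3 genes the wild-type array lay within 2-fold of EGTA and more than 2-fold below the CD14-deficient array. Il6, a fever and acute-phase cytokine, was 2.57-fold lower with EGTA at 977, against 2510.2 in CD14-deficient cells, and wild type at 1538 lay within 2-fold of both. Lcn2 and the acute-phase gene Saa3, 2.11-fold lower with EGTA, complete the 6. Il12b, a subunit of interleukin 12, stood at -0.99 and just missed the limit.

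The higher cytokine genes were Il10 and Il33. Il10, which damps inflammation, had 1894 with EGTA, 684 without CD14 and 2223 in wild type, and was 2.77-fold higher with EGTA. Il33, an interleukin 1 relative held in the nucleus, had 383 with EGTA, 39.7 without CD14 and 661 in wild type. The 9.66-fold difference of Il33 rests on a CD14-deficient value next to the floor. Among 11 CC chemokine genes, 2 were higher with EGTA and none lower. They were Ccl8, a monocyte attractant, 4.82-fold higher at 4429 with EGTA, 919.5 without CD14 and 5119 in wild type, and Ccl17, a T cell attractant, 3.54-fold higher. The list median was 0.17. As deposited it was -0.09, which is 0.425 above that of all genes, with 2 higher and 2 lower.

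NF-kB genes differed by less. None of 12 genes for NF-kB subunits and inhibitors differed at least 2-fold, with a median of -0.45. The largest differences were -0.82 for Tnip1, an inhibitor that works with A20, -0.74 for Nfkb2 and -0.69 for Rel, both NF-kB subunits. As deposited 5 of the 12 were lower. Nfkbia, the inhibitor that NF-kB itself induces, was at 11732 with EGTA and 12333 in CD14-deficient cells. Among 15 genes that feed back on LPS signalling, 2 passed 2-fold and both were higher with EGTA. The list median was 0.04, and -0.19 as deposited, which is 0.32 above that of all genes in that scaling. Both higher members belong to the SOCS family, which blocks cytokine receptor signalling. Socs2 stood at 232 with EGTA, 66.5 without CD14 and 331 in wild type, and Socs1 at 850.2 with EGTA, 298 without CD14 and 711 in wild type.

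Interferon beta and part of its programme were higher with EGTA. Ifnb1, the interferon beta gene, had an intensity of 209 with EGTA, 66.8 without CD14 and 214 in wild type, and was 3.12-fold higher with EGTA. The chemokine genes whose products bind CXCR3 on T cells differed among themselves. Cxcl9 had 1244 with EGTA, 134 without CD14 and 1217 in wild type, a 9.30-fold difference. Cxcl11 had 5713 with EGTA, 843 without CD14 and 4533 in wild type, a 6.78-fold difference. Cxcl10 was high on all 3 arrays, at 13826 with EGTA, 12922 without CD14 and 14314 in wild type, among the brightest values of each. The receptor genes went the other way. Of 11 genes of this list 3 were higher with EGTA (Ifnb1, Cxcl9 and Cxcl11) and 2 lower. Ifngr2 and Ifngr1, the chains of the interferon gamma receptor, were 3.06-fold and 2.95-fold lower with EGTA. Ifnar1, a chain of the receptor for interferon beta, had 693 with EGTA and 1382 without CD14, just within 2-fold.

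Interferon-induced antiviral genes differed little. Of 24 compared, 2 were higher with EGTA and none lower, and the median was 0.43, or 0.15 as deposited, which is 0.67 above the median of all genes in that scaling. The members ran from -0.07 for Ifitm3, which blocks viral entry, to 1.29 for Isg20, an RNA exonuclease. Isg20 had 5920.2 with EGTA, 2428 without CD14 and 5741 in wild type. Mx2, a dynamin-like antiviral GTPase, had 1684 with EGTA, 816 without CD14 and 1529.7 in wild type. As deposited neither passed 2-fold. Ifit1, which binds foreign RNA, was near the top of the scale on each array, at 12695 with EGTA and 11088 in CD14-deficient cells. Before LPS the same list stood apart by genotype. Without stimulus every one of the 24 was lower by 2-fold or more in CD14-deficient than in wild-type cells, beside 3.2% of all 6782 genes lower and 1.4% higher. The median was -2.91. Ifit1 was 67.5 in unstimulated CD14-deficient cells and 2704 in unstimulated wild-type cells.

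Other interferon-linked lists had few genes past 2-fold, all of them higher with EGTA. After normalisation all 8 compared GBP and immunity-related GTPase genes, which act against intracellular microbes, had positive differences, from 0.34 to 1.17, and Iigp1 passed 2-fold at 11496 with EGTA, 5103 without CD14 and 11989 in wild type. Gbp8, which was not in that list, was 8.16-fold higher at 1738 with EGTA, 213 without CD14 and 1528 in wild type. Of 14 IRF and STAT genes 2 were higher, Irf4 and Stat4, both dim and Stat4 with the CD14-deficient array at the floor. The median of the 14 was 0.48. As deposited it was 0.02, which is 0.54 above that of all genes, and none of the 14 was past 2-fold. In antigen presentation Ciita, the master regulator of MHC class II genes, was 2.36-fold higher, the only 1 of 9 class II genes past 2-fold, and none of 11 class I genes differed that much. As deposited Ciita stood at 0.66, and no class II gene was past 2-fold. Cd86, a costimulatory ligand for T cells, was 5.56-fold higher, at 2613 with EGTA, 470.0 without CD14 and 3006 in wild type. It was the single member of 12 costimulatory and checkpoint ligands past 2-fold, and Cd80, its close relative, stood at 0.88. As deposited 1 ligand gene was higher and 1 lower.

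**Figure D2:**
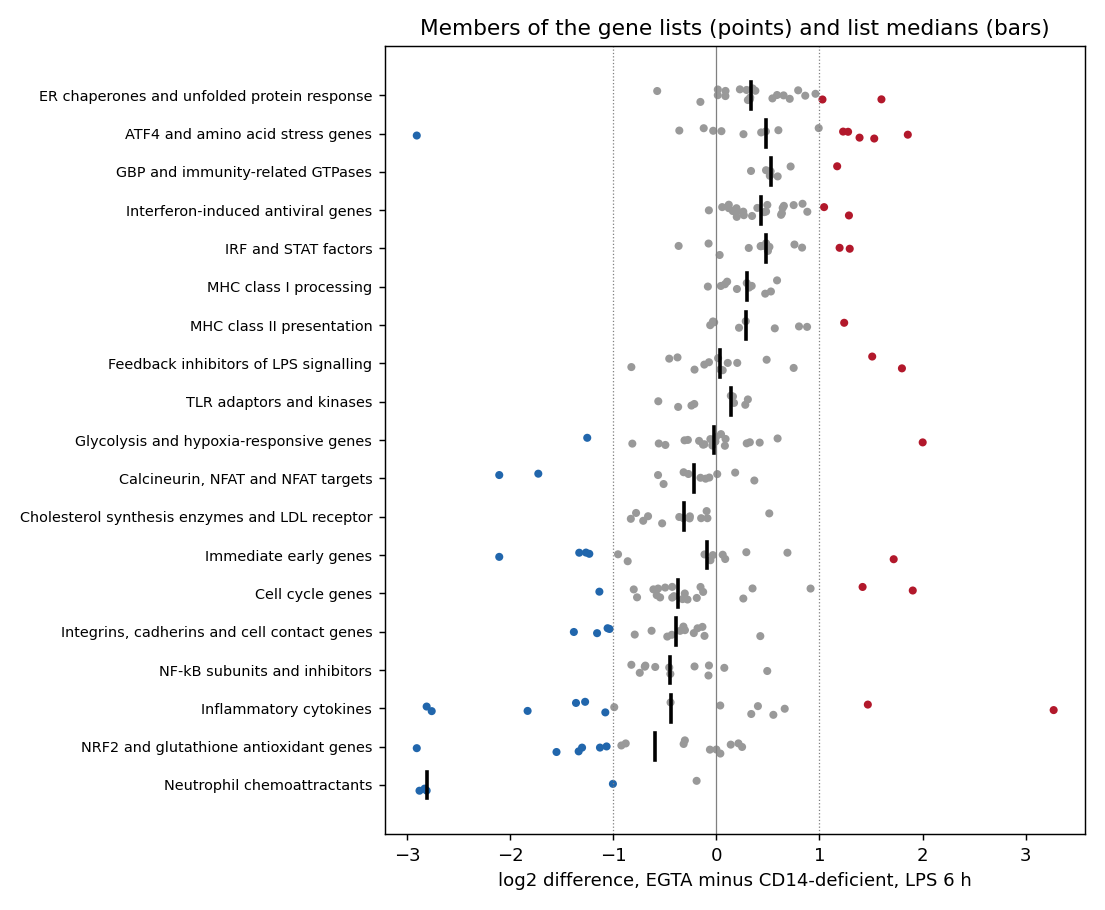
Log2 difference, EGTA minus CD14-deficient at 6 h of LPS, of each compared member of 19 gene lists. Points are genes, red at least 2-fold higher and blue at least 2-fold lower with EGTA, black bars are list medians and dotted lines mark 2-fold. With intensities as deposited all medians sit lower, and those of the endoplasmic reticulum, ATF4, MHC class I, feedback and TLR adaptor lists change sign. The median of all genes stood at -0.51 in that scaling.

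Several antioxidant genes were lower with EGTA. Of 16 compared genes of the NRF2 and glutathione list, 6 passed 2-fold and all 6 were lower, and the median was -0.60. As deposited 8 were lower, and the median stood at -0.57 relative to that of all genes. Slc7a11, the cystine importer that feeds glutathione synthesis, had 55.6 with EGTA, 417 without CD14 and 55.9 in wild type, 7.50-fold lower. Gclm, a subunit of the first enzyme of glutathione synthesis, had 267 with EGTA, 781 without CD14 and 306 in wild type, 2.93-fold lower. Hmox1, which breaks down heme, had 1885 with EGTA, 4757 without CD14 and 1801 in wild type, 2.52-fold lower. In all 3 the CD14-deficient array was the high one. The other lower members were Txnrd1 (thioredoxin reductase), Nfe2l2 (the factor NRF2 itself) and Srxn1 (sulfiredoxin), at -1.30, -1.13 and -1.07. In the promoter windows, 6 of 15 list genes held the antioxidant response element (40%), against 14% of the compared genes with a window, 18.9% of those higher with EGTA and 15.9% of those lower. The windows of Slc7a11 and Srxn1 hold no match to these letters.

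The endoplasmic reticulum folds secreted proteins and stores calcium. Of 22 compared genes for its chaperones and its stress response, 2 passed 2-fold, both higher with EGTA, and the median was 0.34. As deposited the median was -0.01, which is 0.51 above that of all genes, with 1 gene higher and 1 lower. Creld2, a calcium-binding disulfide isomerase, had 1413 with EGTA, 466 without CD14 and 504 in wild type, 3.03-fold higher. Pdia6, a protein disulfide isomerase, had 2763 with EGTA, 1354 without CD14 and 1449.5 in wild type, 2.04-fold higher. Manf, a secreted stress protein, was close behind at 4812 with EGTA, 2471 without CD14 and 1737 in wild type. In Creld2 and Pdia6 the EGTA array was the highest and the other 2 were alike, while in Manf the CD14-deficient value lay between the others. In Pdia6 EGTA lay just within 2-fold of wild type, at 0.93 on the log2 scale. Hyou1, a chaperone of the same compartment, went the other way at -0.57. The stress element was found in 9 of 20 list genes with a promoter window (45%). It was in 0.196% of the compared genes with a window, 1.02% of those higher with EGTA and 0% of those lower.

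Genes driven by ATF4, the factor of the amino acid stress response, were higher with EGTA in 5 of 15. The list had 1 lower gene and a median of 0.48. As deposited 2 were higher and 1 lower, and the median was -0.04, which is 0.48 above that of all genes. The 5 higher genes were Ddit4, Ddit3, Sesn2, Trib3 and Mthfd2. Ddit3, which encodes the stress factor CHOP, had 930.3 with EGTA, 322 without CD14 and 533 in wild type, 2.89-fold higher. Ddit4, an inhibitor of mTOR signalling, had 139 with EGTA, was at the floor in CD14-deficient cells and had 56.1 in wild-type cells, at least 3.62-fold higher. Trib3, a pseudokinase that binds ATF4, had 135 with EGTA, 55.7 without CD14 and 65.2 in wild type. Mthfd2, an enzyme of mitochondrial folate metabolism, was 2.34-fold higher. The lower gene was Slc7a11, which is also in the NRF2 list and whose promoter holds the amino acid response element in 2 copies.

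**Figure D3:**
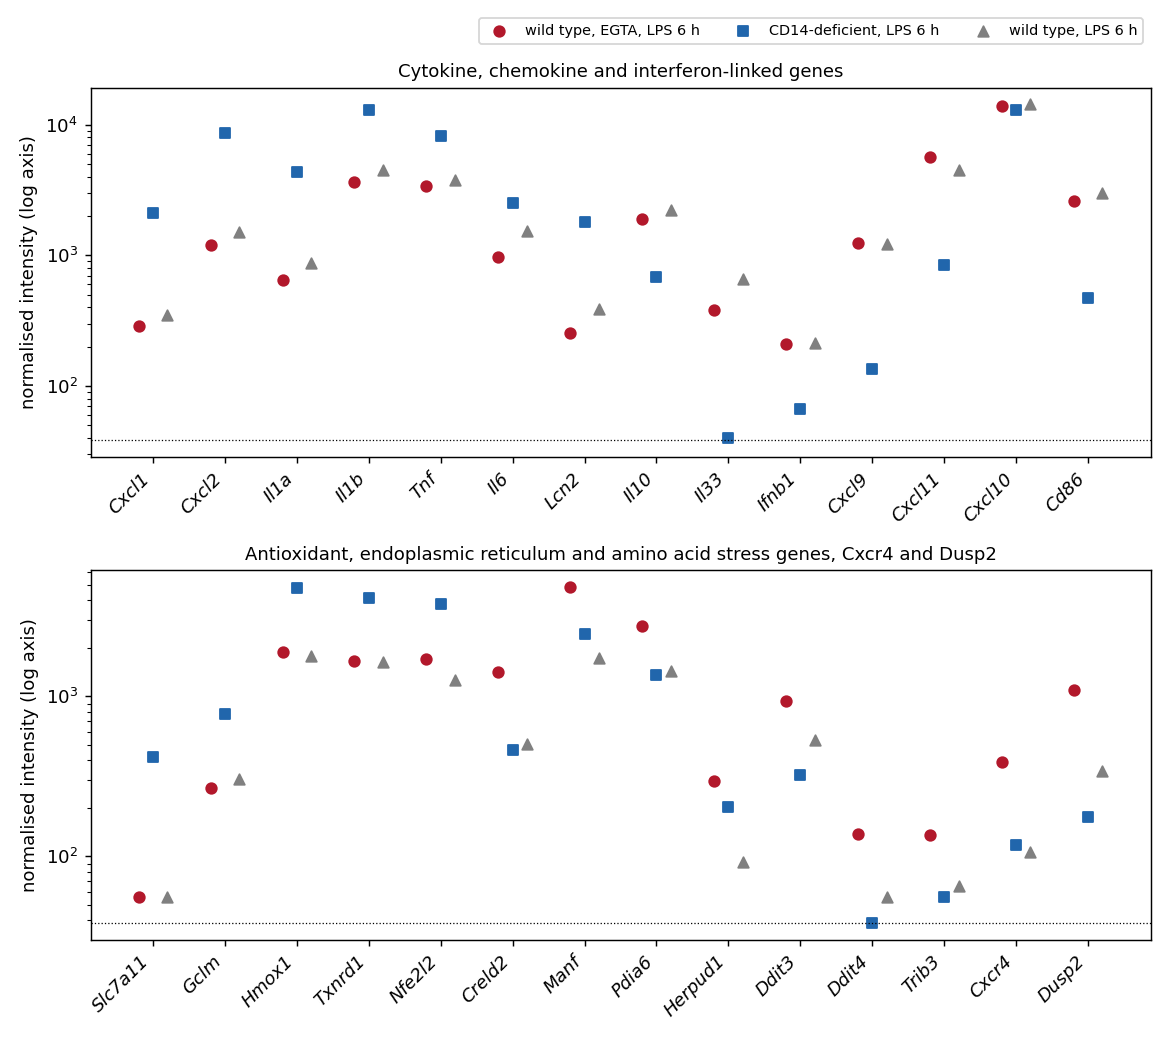
Normalised intensity (log axis) of single genes on the EGTA array (red circles), the CD14-deficient array (blue squares) and the wild-type LPS array (grey triangles), all at 6 h. The dotted line is the floor of 38.4. In the upper panel circles and triangles lie close together and squares apart, except for Il6, with the triangle between, and Cxcl10, where all 3 lie within 2-fold. In the lower panel squares stand apart for the antioxidant genes and circles stand apart for Creld2, Ddit4, Trib3, Cxcr4 and Dusp2. For Herpud1 the triangle is lowest, and for Manf and Ddit3 the circle is highest. For Pdia6 the circle is highest but within 2-fold of the triangle.

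Of 12 compared genes of the calcineurin and NFAT list 2 passed 2-fold, both lower with EGTA, and the median was -0.21. As deposited 4 were lower, none was higher and the median was -0.72, or -0.21 relative to that of all genes. The 2 were Egr2, a zinc finger factor, 4.31-fold lower at 88.7 with EGTA, 382 without CD14 and 138 in wild type, and Ptges, the last enzyme of prostaglandin E2 synthesis, 3.31-fold lower at 485 with EGTA, 1607 without CD14 and 657 in wild type. In both, wild type lay closer to EGTA. Rcan1, a calcineurin inhibitor that NFAT induces, had 837 with EGTA, 1043 without CD14 and 1311 in wild type, so that all lay within 2-fold and wild type was highest. Ptgs2, the inducible cyclooxygenase, stood at -0.74. Il2 and Csf2, cytokine genes that NFAT drives in lymphocytes, were at the floor on all 8 arrays. The list for calcium release, entry and pumps also holds calcium-binding proteins. Of its 13 compared genes only S100a8, which is such a protein and not a channel or pump, passed 2-fold, while as deposited 3 were lower. Orai1, the pore of the store-operated calcium channel, stood at -0.98, with 260.4 with EGTA and 512 in CD14-deficient cells.

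Among phosphatases and immediate early genes single members differed by more. Dusp2, a nuclear phosphatase of MAP kinases, had 1096 with EGTA, 177 without CD14 and 340.4 in wild type, 6.21-fold higher with EGTA. Dusp16, a phosphatase of JNK and p38, was 3.17-fold lower, at 224 with EGTA, 710.1 without CD14 and 258 in wild type. Of 14 immediate early genes 4 were lower (Egr2, Myc, Egr1 and Ier2) and 1 higher, and as deposited 6 were lower and 1 higher. The higher gene was Klf4, a factor of monocyte differentiation, at 1115 with EGTA, 339 without CD14 and 1288 in wild type. Of 22 cell cycle genes 2 were higher and 1 lower with a median of -0.37, and as deposited 1 was higher and 10 lower. Ccnd1, the cyclin that growth factors such as M-CSF raise in G1, had 2728 with EGTA, 728 without CD14 and 3339.9 in wild type, 3.75-fold higher.

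Lipid, iron and surface genes added further single differences. Of 13 LXR and cholesterol efflux genes 3 were lower with EGTA, the cholesterol exporter gene Abca1 (-1.40), Apoe (-1.21) and the fatty acid synthase gene Fasn (-1.07), and none higher, and as deposited 5 were lower. None of 13 cholesterol synthesis genes passed 2-fold, but as deposited 4 were lower. Their median was then -0.83, or -0.31 relative to that of all genes. Marco, a scavenger receptor for bacteria, was at the floor with EGTA and in wild-type cells and at 298 in CD14-deficient cells, so it was at least 7.78-fold lower with EGTA. Olr1, the receptor of oxidised LDL, was the other lower scavenger gene, and the apoptotic cell receptor gene Mertk and the Fc receptor gene Fcgr4 were higher, at 2.45-fold and 2.08-fold. As deposited none of the 18 genes of this list was higher and 7 were lower. Hamp, the iron hormone hepcidin, had 1031 with EGTA, 249.8 without CD14 and 1095 in wild type. Of 16 integrin and cell contact genes, whose integrin products need divalent cations to bind, 4 were lower and none higher, and as deposited 7 were lower. The 4 were Itgax (-1.38), Itgal (-1.16), the actin regulator gene Wasl (-1.06) and Itga5 (-1.04). Wasl turned to 0.16 when the 2 arrays were quantile normalised alone, and its bright probe sets stood at -1.06 and 0.15.

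The largest differences outside the lists went in both directions. Rpgrip1, known for its role in photoreceptor cilia, had 1400.0 with EGTA and 1313 in wild-type cells and was at the floor in CD14-deficient cells, at least 36.5-fold higher with EGTA. Cnn3, an actin-binding calponin, had 1976 with EGTA, 126 without CD14 and 1951 in wild type. Wdfy1, an adaptor of TLR3 and TLR4, had 595 with EGTA, 73.9 without CD14 and 613 in wild type. For these and Erdr1 (3.56), wild type stood beside EGTA. Cnn3 and Erdr1, like Adi1 and Spic below, are read by probe sets of a type that can also bind other transcripts. The 5 bright probe sets of Cnn3 lay between 2.93 and 4.14, while Rpgrip1 rests on 1 bright probe set of 4. Sla, an adaptor that damps receptor signalling, had the largest decrease between measured values, 11.7-fold, with 78.3 with EGTA, 914 without CD14 and 83.9 in wild type. Gdf3, a growth factor of the TGF-beta family, had 77.9 with EGTA, 784 without CD14 and 94.7 in wild type. Pdgfb, a platelet-derived growth factor chain, was 5.41-fold lower. Adi1, at -2.72, is uncertain, because another of its probe sets stood at 2.25. Of 163 genes past 2-fold with several bright probe sets, Adi1 alone had probe sets past 2-fold both ways, and 158 had all probe sets on 1 side.

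The wild-type array with LPS alone shows on which side each difference lay. Of the 261 genes higher with EGTA, wild type was within 2-fold of EGTA and not of CD14-deficient cells for 161 (61.7%), within 2-fold of both for 81 (31.0%), and within 2-fold of CD14-deficient cells alone for 18 (6.9%). Of the 209 lower genes these were 123 (58.9%), 73 (34.9%) and 10 (4.78%). Rgcc, higher with EGTA, and Sgms1, Rffl and Sgk1, lower with EGTA, were at least 2-fold from wild type on both arrays. In Sgms1 and Rffl wild type lay between, while Rgcc was highest and Sgk1 lowest in wild type. Over all genes EGTA was at least 2-fold above wild type for 0.549% of 6740 genes and below it for 0.267%. CD14-deficient cells stood above wild type for 2.53% of 6761 and below it for 3.08%. Both of these sets of differences use the same wild-type array.

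In 28 genes wild type lay on the side of CD14-deficient cells and the EGTA array stood apart. Higher with EGTA were Dusp2, Ddit4, Ccl17, Cxcr4 and Creld2, in order of size. Cxcr4, the receptor of CXCL12, had 391 with EGTA, 118 without CD14 and 106 in wild type, 3.32-fold higher with EGTA. Ccl17 had 287 with EGTA, 81.1 without CD14 and 133 in wild type. Lower with EGTA were Tubb2b, Olr1, Ell2, Slc7a6 and Dimt1. Olr1 had 65.1 with EGTA, 222 without CD14 and 199.8 in wild type. Ell2, a transcription elongation factor, had 1322 with EGTA, 4299.6 without CD14 and 2953 in wild type. Trib3, Mthfd2 and the osteoclast phosphatase gene Acp5 were among the other higher genes. The Wasl call is in this group too.

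Genes were also sorted by their response to LPS in wild-type cells, from the wild-type arrays at 6 h and 0 h, which are not among the compared arrays. Of 719 compared genes induced 2-fold or more by LPS, 156 (21.7%) were higher and 32 (4.45%) lower with EGTA, and the median was 0.48. Of 525 repressed genes, 12 (2.29%) were higher and 59 (11.2%) lower, with a median of -0.30. Among 5427 genes within 2-fold after LPS, 75 (1.38%) were higher and 95 (1.75%) lower. The cells of the EGTA array are wild type too, so genotype enters the sorting.

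The same 2 conditions were measured again at 24 h on other arrays. Of the 261 genes higher with EGTA at 6 h, 228 were compared at 24 h, where 149 (65.4%) were again 2-fold higher or more. None was lower, and their median was 1.48. At 24 h 6.09% of 6850 genes were higher and 5.61% lower with EGTA, and of the 6564 compared at both times 374 (5.7%) were higher and 342 (5.21%) lower. Of the 209 genes lower at 6 h, 193 were compared at 24 h, where 71 (36.8%) were lower and 4 higher, with a median of -0.70. Il10 was 2.77-fold higher at 6 h and 8.37-fold at 24 h, with 813 with EGTA and 97.1 in CD14-deficient cells at 24 h. Marco had 78.9 with EGTA and 2158 in CD14-deficient cells at 24 h, 27.4-fold lower. Cxcl1 and Cxcl2 lay within 2-fold by 24 h, at -0.70 and -0.70, as did Il1a and Tnf, at -0.25 and 0.09. Of the 22 endoplasmic reticulum genes none differed at least 2-fold at 24 h, and the median was 0.01. Cxcr4 and Dusp2 stayed above 2-fold at 24 h, at 2.85 and 3.00. The change between times was not tested.

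**Figure D4:**
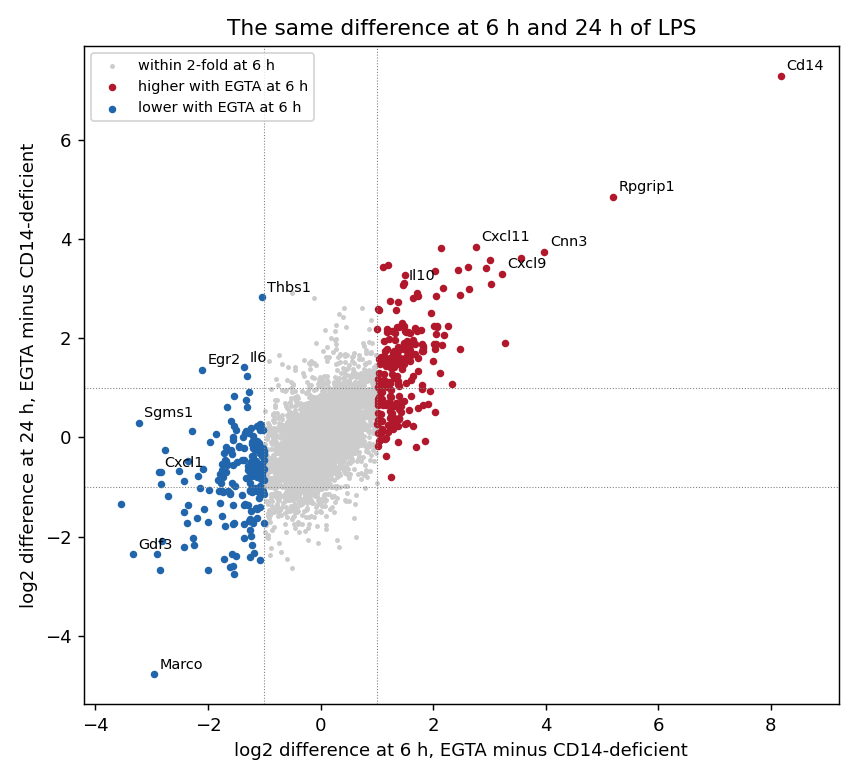
Log2 difference, EGTA minus CD14-deficient, at 24 h of LPS (vertical axis) against 6 h (horizontal axis) for 6564 genes compared at both times. Red points were at least 2-fold higher and blue points at least 2-fold lower at 6 h, and dotted lines mark 2-fold. Red points lie above 0 at 24 h with few exceptions and none lies below the lower dotted line, while blue points spread from -4.77 (Marco) to 2.82 (Thbs1).

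The unstimulated arrays add genotype without LPS or EGTA. Of the 261 genes higher with EGTA at 6 h, 176 were compared at 0 h, where 41 (23.3%) were lower in CD14-deficient than in wild-type cells by 2-fold or more and 1 higher. Of all 6464 genes compared at both, 67 (1.04%) were higher and 207 (3.2%) lower in CD14-deficient cells. Of the 209 lower genes, 175 were compared at 0 h, where 15 (8.57%) were higher in CD14-deficient cells and 7 lower. At 0 h Rpgrip1 had 44.98 in CD14-deficient and 1607 in wild-type cells. Cd86 had 75.8 without CD14 and 751 in wild type, and Gdf3 1125 without CD14 and 122 in wild type. Cxcl1 and Il1a had values of at most 46.1 before LPS in either genotype, and Slc7a11 was at the floor in both. Cxcl2 and Tnf, higher without CD14 at 6 h, were more than 2-fold lower without CD14 before LPS. At 0 h Cxcl2 had 157 without CD14 and 469 in wild type, and Tnf 149 without CD14 and 320 in wild type. In all, 36 of 6320 genes compared at the 3 times were higher with EGTA at 6 h and 24 h and lower in CD14-deficient cells at 0 h. They included Cd14, Rpgrip1, Erdr1, Wdfy1, Gbp8, Ccl8, Cd86, Gadd45g, Ddit3, Isg20, Iigp1, Mx2, Socs1 and Tlr3. The opposite pattern was seen for 6 genes, Gdf3, Adi1, Paip1, Arap3, Egln3 and Fasn.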

How the data were processed

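Total RNA of mouse bone marrow-derived macrophages was hybridised to 8 Affymetrix arrays, 1 for each of 8 groups. The deposited values are linear intensities of 22690 probe sets, which the authors made with MAS5, per the submitters' processing notes. Its version and any scaling to a common target are not given in the sources used here. The intensities were quantile normalised over the 8 arrays, raised to a floor at the 40th percentile (38.4) and taken to log2. Of the probe sets, 20393 had 1 gene in the platform annotation, 691 had several and were not used, and 1606 were not listed. They covered 12394 genes, and the probe set with the highest mean over the arrays stood for a gene. Genes whose brighter array lay above 88.2, the median of all values, were compared, and at least 2-fold was counted. The 39 gene lists hold 560 genes, of which 491 were on the array. With 1 array per group there is no test, and the number of arrays limits the precision.

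Genes were named by a rule: the 12 largest differences in each direction between values above the floor, the 8 largest bounds in each, the 3 largest in each list, a set of 12 genes (Csf2, Il2, Rcan1, Ptges, Ptgs2, Cxcl10, Ifnb1, Il10, Il6, Il12b, Tnf and Cd14), the 8 largest on opposite sides of wild type, the 5 largest set apart with EGTA in each direction, the 5 largest that changed sides by 24 h, and the genes at the filter. Il1b, Saa3, Arap3, Paip1, Tlr3, Tlr4, Ly96, Lyz2, Csf1r, Nfkbia, Ifit1, Ifitm3, Pf4, Hyou1, Ifngr1, Ifngr2, Ifnar1, Txnrd1, Nfe2l2, Srxn1, Sesn2, Trib3, Mthfd2, Egr1, Ier2, Fcgr4, Itga5 and Sgk1 were chosen after their values were seen. The gene lists and the comparisons were chosen with earlier results of these data known. The procedure was tested on simulated data, in which changes larger than 2-fold were planted in bright genes. That test does not cover dim genes or changes near the 2-fold limit. Alternatives were other scalings, floors, probe set rules, filters and a 3-fold limit. Python 3.11.15, numpy 2.4.6, pandas 2.3.3 and matplotlib 3.10.9 were used, and promoter sequences are RefSeq's, build GRCm38.p6.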

Additional observations from a re-analysis of the deposited data

Results flagged for a closer look

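Past 2-fold, 4 genes stood on one side at 6 h of LPS and on the other at 24 h. The log2 difference, EGTA minus CD14-deficient, was -2.11 at 6 h and 1.37 at 24 h for Egr2, a zinc finger factor. At 24 h Egr2 had 99.0 with EGTA and was at the floor in CD14-deficient cells. For Il6 it was -1.36 at 6 h and 1.42 at 24 h, where intensity was 349.7 with EGTA and 131 in CD14-deficient cells. Spic, a factor of heme-handling macrophages, gave -1.30 at 6 h, with the EGTA array at the floor, and 1.24 at 24 h, with 445 with EGTA and 189 in CD14-deficient cells. Thbs1, the matrix protein thrombospondin 1, gave -1.05 at 6 h and 2.82 at 24 h, with 652 with EGTA and 92.1 in CD14-deficient cells. The difference between times was not tested, since each value comes from 1 array per condition.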

How the results depend on the processing

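The counts of 261 higher and 209 lower genes moved by over 1.5 times under 3 settings. As deposited they were 86 and 880, with the brighter array above the 75th percentile 140 and 108, and at a limit of 3-fold 73 and 66. Under the other settings, namely equal medians, quantile normalisation of the 2 arrays alone, a lower floor, no floor, the mean of probe sets and no filter, the higher count ran from 220 to 307 and the lower count from 176 to 224. Wasl reversed, to 0.16 with the 2 arrays normalised alone. Of 132 named genes compared, 91 were past 2-fold and 15 of these came within it under some alternative. Genes that an alternative left out of the comparison do not enter that count. With the brighter array above the 75th percentile, 77 of the 132 were still compared. No paired analysis was possible because each group has 1 array and the labels carry no replicate numbers, and for the same reason no array could be left out. Dim genes near the floor, with no detection calls at hand, have imprecise folds.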

Other observations

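Further secreted and matrix genes differed. Serpinb2, a plasminogen activator inhibitor, was at the floor with EGTA and in wild-type cells and at 275 in CD14-deficient cells, at least 7.17-fold lower with EGTA, and Mmp9, a gelatinase, had the same arrangement with 125 in CD14-deficient cells. Vegfa, the angiogenic growth factor, had 389.6 with EGTA, 97.3 without CD14 and 346 in wild type, the single higher gene of 22 in the glycolysis and hypoxia list. The single lower gene of that list was Egln3, at -1.25 with the EGTA array at the floor. As deposited 1 gene of the list was higher and 4 were lower. Nos2, the inducible nitric oxide synthase, had 1027 with EGTA, 439.8 without CD14 and 832 in wild type at 6 h, and 593 with EGTA and 87.5 in CD14-deficient cells at 24 h. Slc39a14, a zinc and iron importer, was 3.38-fold lower with EGTA. The metallothionein genes Mt1 and Mt2, which zinc induces, stood at -0.80 and -0.92 at 6 h and at -1.46 and -1.47 at 24 h. At 6 h Mt1 had 5612 with EGTA, 9779 without CD14 and 8311 in wild type, and Mt2 had 4893 with EGTA, 9251 without CD14 and 8446 in wild type. Before LPS both were higher in CD14-deficient than in wild-type cells, by 1.02 and 1.47 on the log2 scale.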
